A study of Mus musculus and Homo sapiens with 10 samples.

Results

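CISH, SOCS2, PIM1, BCL2L1 and CCND2 are 5 genes known as transcriptional targets of STAT5, the transcription factor that the BCR-ABL1 fusion kinase keeps active in chronic myeloid leukaemia. Their chromatin was examined in K562, an established human erythroleukaemia line that carries BCR-ABL1. The members were the acetylation and methylation islands that overlapped a fixed hg19 window around each gene by at least 1 bp, where an island is a stretch of the genome called as enriched over a background library. The windows were chr3:50630000-50665000 for CISH, chr12:93940000-93990000 for SOCS2, chr6:37120000-37160000 for PIM1, chr20:30235000-30330000 for BCL2L1 and chr12:4360000-4430000 for CCND2. They held 106 of the 360312 islands deposited for K562, of which 26 were H3K122ac, 47 H3K27ac and 33 H3K4me1. Gaps of up to 600 bp were joined inside H3K122ac and H3K4me1 islands but only up to 200 bp inside H3K27ac islands, so numbers of islands are not comparable between marks.

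The K562 cells were at passage 14, with no treatment named in the labels. Each of H3K122ac, H3K27ac and H3K4me1 was mapped in 1 library, beside 1 input library, after the chromatin was digested with micrococcal nuclease. The series also holds mouse embryonic stem cell libraries, which were not used here. No STAT5 binding, inhibitor or RNA was measured, so whether STAT5 drives these genes in the cells sampled was not tested. The libraries placed 18283729 reads (H3K122ac), 34195325 reads (H3K27ac) and 35562145 reads (H3K4me1) inside all islands. There is no replicate list, so every comparison below lacks a replicate check. Intervals are exact 95% intervals and cover counting error only. A low value in these bulk samples cannot tell fewer cells with a mark from less of the mark per cell.

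STAT5 is activated by tyrosine phosphorylation, moves to the nucleus and binds regulatory DNA near its targets. In normal blood cells cytokine receptors and JAK kinases start this signal, and in chronic myeloid leukaemia BCR-ABL1 does so without cytokine. Among the targets, CISH and SOCS2 encode SH2-domain proteins that restrain cytokine signalling, PIM1 a survival kinase, BCL2L1 the anti-apoptotic protein BCL-XL and CCND2 cyclin D2, which promotes entry into the cell cycle. H3K27ac is a tail acetylation of active promoters and enhancers, H3K122ac lies on the lateral surface of the nucleosome core where histone and DNA touch, and H3K4me1 is typical of enhancers and usually low at the very start of active genes. The study's comparison is between acetylation of the core and of the tail.

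Islands of every list were present at all 5 genes. Among non-overlapping genome tiles of the same length, the share with all 3 marks was 31.9% at the 35 kb of the CISH window, 33.8% at 40 kb (PIM1), 37.1% at 50 kb (SOCS2), 42.2% at 70 kb (CCND2) and 46.7% at 95 kb (BCL2L1). The genes differed in how much of the window was covered. PIM1 had H3K122ac over 74.0% of its window, BCL2L1 over 60.0%, CISH over 59.4%, SOCS2 over 32.8% and CCND2 over 12.9%. Against tiles that also held all 3 marks, these shares were above those of 98.9%, 99.0%, 96.3%, 87.2% and 59.9% of tiles. Thus CCND2 was close to an ordinary marked tile in H3K122ac coverage, while PIM1 and BCL2L1 were near the top. H3K27ac covered 88.0% of the CISH window, 74.7% at BCL2L1, 71.0% at PIM1, 52.4% at SOCS2 and 25.7% at CCND2. These were above the H3K27ac coverage of 99.1%, 98.7%, 94.7%, 85.8% and 61.3% of such tiles. H3K4me1 covered 92.6% at CISH, 78.5% at BCL2L1, 71.5% at PIM1, 59.6% at SOCS2 and 20.9% at CCND2. These were above the H3K4me1 coverage of 98.7%, 98.5%, 92.4%, 88.1% and 47.7% of such tiles. CCND2 was thus the least covered for every mark, and CISH the most covered for H3K27ac and H3K4me1 but not for H3K122ac.

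**Figure D1:**
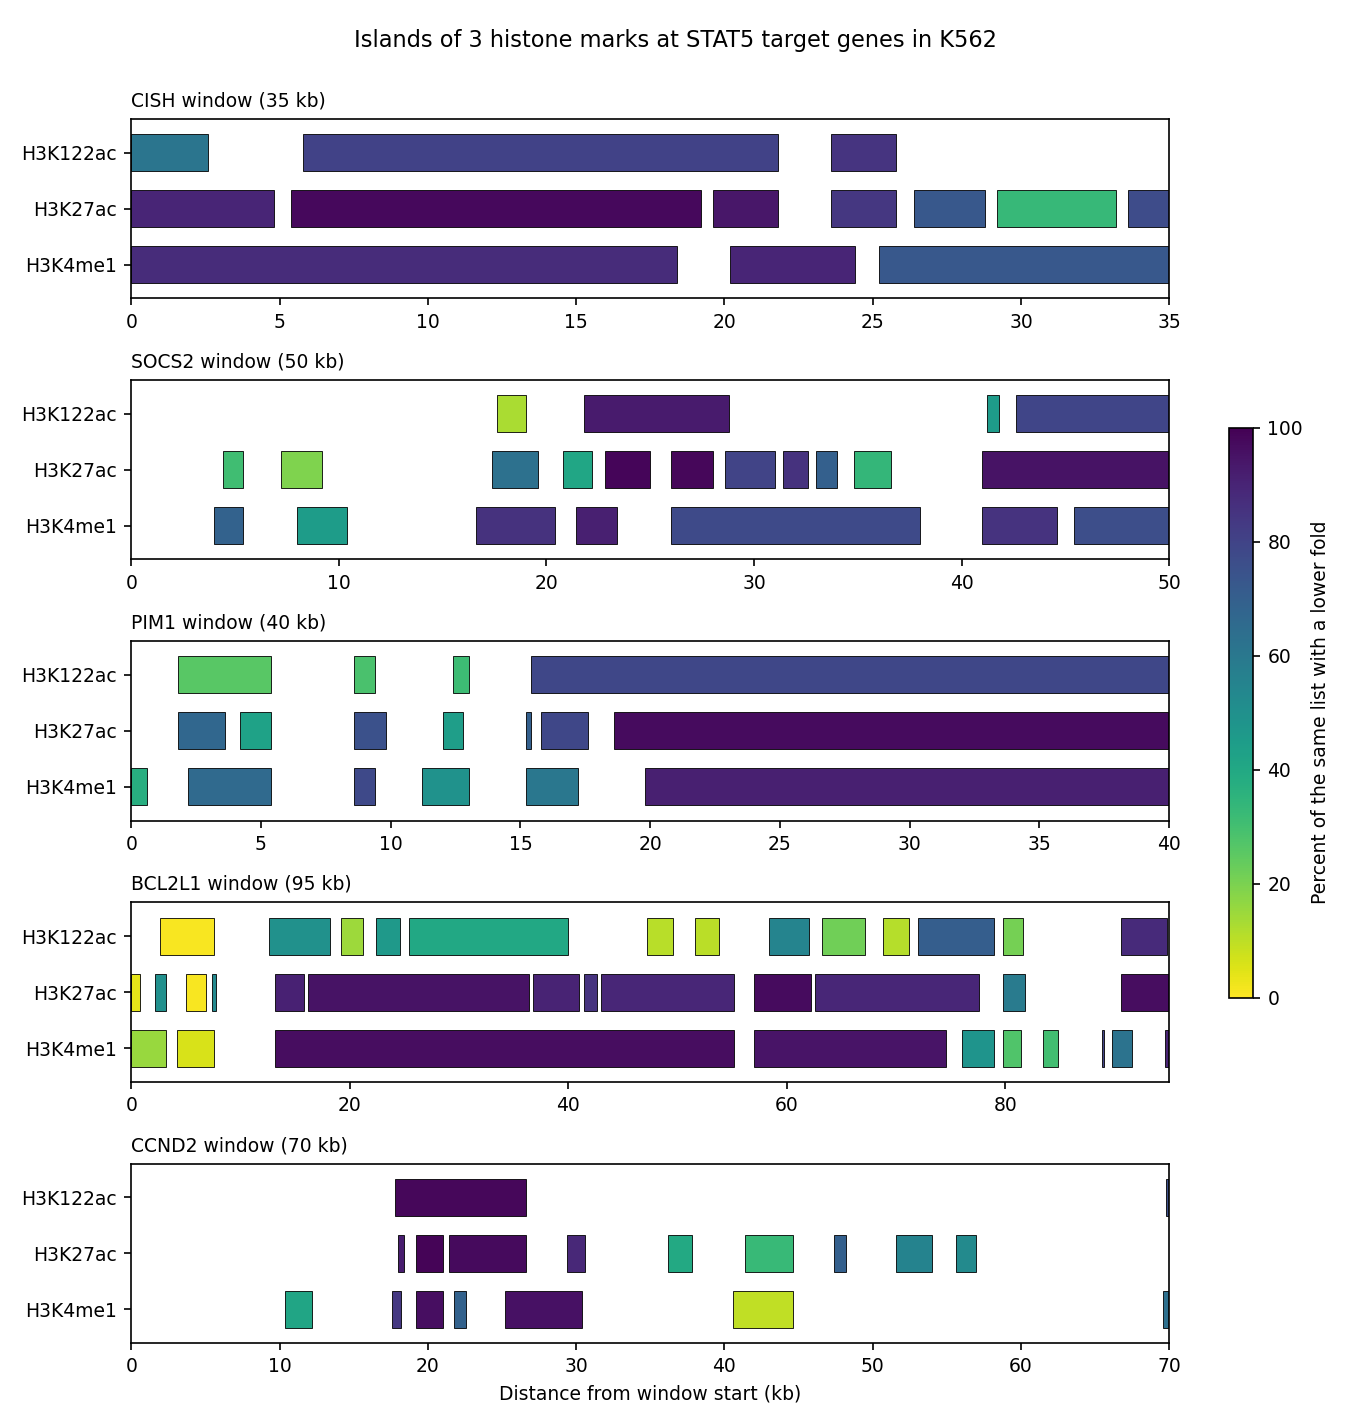
Islands of H3K122ac, H3K27ac and H3K4me1 in the 5 windows, drawn to scale by distance from the window start in kb, cut off at the window edges, with the colour giving the share of the same list's islands that had a lower fold over background. Each window holds all 3 marks, PIM1 as a long domain over the later part of the window, BCL2L1 with H3K122ac broken into 13 islands, and CCND2 with H3K122ac in 2 islands.

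The feedback inhibitor CISH had 3 H3K122ac islands. The main one, chr3:50635801-50651800, spanned 16000 bp with 1874 reads over 667 background reads, a fold of 10.9 (9.95 to 11.9); folds are the authors' and are ranked only within a list. It was longer than all but 0.52% of H3K122ac islands. A second, chr3:50653601-50655800, reached 12.5 (9.76 to 16.1) from 277 reads over 86, and the third, chr3:50621001-50632600, which begins before the window, 6.75 (6.09 to 7.49) from 1008 reads over 578. The intervals of the first pair overlapped, and the third was lower than both.

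H3K27ac followed the same stretch at CISH. Its island of highest fold, chr3:50635401-50649200, had 2924 reads over 578 and a fold of 7.36 (6.73 to 8.06), which 2.25% of H3K27ac islands exceeded. The longest, chr3:50605201-50634800, spanned 29600 bp, mostly before the window, with 4168 reads over 1314 and a fold of 4.61. H3K4me1 formed 3 islands, with 3829 reads over 1371 in chr3:50618001-50648400, 638 over 220 in chr3:50650201-50654400 and 1736 over 805 in chr3:50655201-50672400. Their folds were 4.81, 4.99 and 3.71. Beyond 50655800 the window carried no H3K122ac island, while 3 further H3K27ac islands there had folds of 3.03, 1.93 and 3.28 and lay 600 to 7800 bp from the nearest H3K122ac island. The genes MAPKAPK3 and HEMK1 neighbour CISH, and islands were not assigned to any gene.

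At SOCS2, the other feedback inhibitor, H3K122ac formed 4 islands in 2 places. The island of highest fold, chr12:93961801-93968800, had 734 reads over 166 and a fold of 17.1 (14.4 to 20.4), exceeded by 7.37% of the list. The longest, chr12:93982601-93992200, held 1004 reads over 365 with a fold of 10.7 (9.44 to 12.0). The remaining islands were small, chr12:93957601-93959000 with 51 reads over 84 (fold 2.35) and chr12:93981201-93981800 with 34 over 27 (4.88).

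Tail acetylation at SOCS2 was strongest inside the island of highest H3K122ac fold. There chr12:93962801-93965000 had 327 H3K27ac reads over 59, a fold of 8.06 (6.09 to 10.8), and chr12:93966001-93968000 had 283 over 53, a fold of 7.77 (5.77 to 10.6). Only 1.53% and 1.79% of H3K27ac islands had higher folds. The longest H3K27ac island, chr12:93981001-93990200, had the most reads, 1209 over 300, and a fold of 5.86. Between the 2 H3K122ac centres, from 93968801 to 93976600, lay a run of H3K27ac and H3K4me1 without H3K122ac. Its 4 H3K27ac islands had folds of 3.49, 4.01, 2.91 and 1.94, the first reaching 200 bp into the H3K122ac island. H3K4me1 was highest at chr12:93961401-93963400, with 224 reads over 74 and a fold of 5.21 (3.99 to 6.88), and longest at chr12:93966001-93978000, with 906 over 391 and 3.99.

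PIM1, the survival kinase, carried a single long domain. H3K122ac island chr6:37135401-37163000 spanned 27600 bp, 3000 bp of it past the window, with 3707 reads over 1379 and a fold of 10.4 (9.78 to 11.1). It ranked 62 by length among the 72662 H3K122ac islands and held 93.5% of the H3K122ac reads of the islands at PIM1. Within it, H3K27ac island chr6:37138601-37162800 had 5859 reads over 1230 and a fold of 6.93 (6.51 to 7.37), ranking 71 by length of 173981. H3K4me1 island chr6:37139801-37163000 had 3574 reads over 1190 and a fold of 5.17 (4.84 to 5.53). All 3 marks thus ended within 200 bp of each other, while their starts were staggered by several kb.

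Outside the long island of each mark, the PIM1 window held smaller islands of lower fold. The 3 of H3K122ac lay before the domain, at 37121801, 37128601 and 37132401, and had 169 reads over 201, 57 over 64 and 31 over 33. Their folds, 3.26 (2.64 to 4.01), 3.45 (2.37 to 5.01) and 3.64 (2.15 to 6.13), could not be told apart by their counting intervals and lay below that of the domain. Each met both other marks. H3K27ac folds in the 6 smaller islands ranged from 2.11 to 3.38, and H3K4me1 folds in the 5 smaller ones from 2.32 to 4.01. One of these H3K27ac islands, chr6:37135801-37137600 with the fold of 3.38, lay inside the H3K122ac domain, and 90% of the H3K4me1 island chr6:37135201-37137200, with a fold of 3.12, did so.

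BCL2L1, in the longest of the 5 windows, had 81.2 kb under at least 1 mark, and its long H3K4me1 islands were only in part covered by H3K122ac. H3K4me1 formed an island of 42000 bp, chr20:30248201-30290200, with 8817 reads over 2412 and a fold of 6.30 (6.02 to 6.59), ranking 110 by length of 113669. A second H3K4me1 island, chr20:30292001-30309600, had 3541 reads over 1050 and a fold of 5.81 (5.42 to 6.23). H3K27ac over the same stretch came in 7 islands, of which chr20:30251201-30271400 was the longest, with 4692 reads over 1161 and a fold of 5.88 (5.51 to 6.27). The highest H3K27ac fold was 6.98 (6.11 to 8.01) at chr20:30292001-30297200, from 1253 reads over 261, and 2.76% of the list exceeded it.

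H3K122ac at BCL2L1 was divided into 13 islands with folds of 1.46 to 14.1 and a median of 2.95, against 5.34 for all H3K122ac islands. The longest, chr20:30260401-30275000, had 1086 reads over 964 and a fold of 4.36 (4.00 to 4.76), and 59.9% of the list had higher folds. It lay inside the 42000 bp H3K4me1 island, of which H3K122ac covered 67.6% and H3K27ac 96.2%. In total 18.8 kb at BCL2L1 carried H3K27ac and H3K4me1 without H3K122ac, in 16 stretches of up to 4200 bp. The H3K122ac library was the shallowest, at 0.258 of the background library against 0.688 for H3K27ac, and whether weak H3K122ac went uncalled there was not tested. Higher H3K122ac folds were found towards the later end of the window. Island chr20:30307001-30314000 had 791 reads over 365 and a fold of 8.39 (7.40 to 9.52), and chr20:30325601-30329800 had 835 over 230 and 14.1 (12.1 to 16.3), the highest of the window. The neighbouring gene TPX2, a spindle assembly factor, lies at the later end of the window, and this last island was not assigned to either gene. With the window narrowed by 5 kb on each side, it is left out and the highest H3K122ac fold is 8.39. At the other end, chr20:30237601-30242600 had 100 reads over 265 and a fold of 1.46 (1.15 to 1.85), lower than 99.1% of the list.

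CCND2 had little coverage and the highest H3K122ac fold of the 5 genes. Island chr12:4377801-4386600 spanned 8800 bp with 1152 reads over 176 and a fold of 25.3 (21.6 to 29.9), and 1.82% of H3K122ac islands had a higher fold. H3K27ac formed 3 islands within it: chr12:4379201-4381000 with 232 reads over 37 and a fold of 9.12 (6.43 to 13.3), chr12:4381401-4386600 with 524 over 108 and 7.06 (5.73 to 8.76), and chr12:4378001-4378400 with 35 over 10 and 5.09 (2.47 to 11.5). The first was exceeded by 0.88% of the list. H3K4me1 was highest at the same stretch, chr12:4379201-4381000, with 132 reads over 37 and a fold of 6.14 (4.24 to 9.10). Its longest island and the one with the most reads was chr12:4385201-4390400, with 448 over 129 and 5.98 (4.91 to 7.33).

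A stretch in the later part of the CCND2 window held H3K27ac islands but no H3K122ac island. Whether weak H3K122ac went uncalled there was not tested. From 4396201 to 4417000 there were 5 H3K27ac islands with folds of 1.92 to 2.91, all at least 9600 bp from the nearest H3K122ac island. One of them met H3K4me1, at chr12:4400601-4404600, whose fold of 1.55 was among the lowest of the H3K4me1 members. The only H3K122ac island of the 5 windows without H3K27ac was chr12:4429801-4431000, which reaches 1000 bp past the window. This island at the window edge was not assigned to CCND2 or to any other gene. The island had 80 reads over 32, a fold of 9.68 (6.35 to 15.1), and lay 12800 bp from the nearest H3K27ac island. It sat wholly under an H3K4me1 island with 85 reads over 45 and a fold of 3.25 (2.24 to 4.78).

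Summed over the islands of a window, the order of the genes by H3K122ac differed from their order by the other marks. The pooled H3K122ac fold was 22.9 (19.8 to 26.7) at CCND2, 11.0 (10.0 to 12.0) at SOCS2, 9.19 (8.62 to 9.80) at CISH, 9.15 (8.64 to 9.70) at PIM1 and 4.79 (4.58 to 5.01) at BCL2L1. CISH and PIM1 could not be told apart by counting error, and BCL2L1 was the only window below the 6.77 of the whole list. For H3K27ac the order was PIM1 at 5.89 (5.58 to 6.22), BCL2L1 at 4.94 (4.77 to 5.12), CISH at 4.92 (4.70 to 5.14), SOCS2 at 4.08 (3.80 to 4.39) and CCND2 at 3.75 (3.40 to 4.14), all above the list's 2.74. The neighbours BCL2L1 and CISH, and SOCS2 and CCND2, had overlapping intervals. For H3K4me1 it was BCL2L1 at 5.42 (5.24 to 5.61), PIM1 at 4.55 (4.30 to 4.81), CISH at 4.46 (4.25 to 4.68), SOCS2 at 4.10 (3.83 to 4.39) and CCND2 at 3.61 (3.23 to 4.03), against 3.14 for the list. Here the intervals of PIM1 and CISH, of CISH and SOCS2, and of SOCS2 and CCND2 overlapped. CCND2 was thus first by H3K122ac and lowest by the other marks, where it could not be told apart from SOCS2, and BCL2L1 was last by H3K122ac and first by H3K4me1. These sums include weak islands outside the H3K122ac islands. They also count islands whole, with the parts past the window edges. At CISH, 49.7% of the H3K27ac reads came from chr3:50605201-50634800, of which 24799 of 29600 bp lay outside the window. The place of CISH by the parts inside the window alone was not tested. Counting only H3K27ac islands that met H3K122ac, CCND2 had the highest pooled H3K27ac fold, 7.42 (6.24 to 8.88). PIM1 had 5.92 (5.60 to 6.25), CISH 5.39 (5.13 to 5.66), BCL2L1 5.02 (4.85 to 5.20) and SOCS2 4.93 (4.53 to 5.38). The intervals of CCND2 and PIM1 overlapped slightly, and the CCND2 value rests on 3 islands inside the same H3K122ac island. For H3K4me1 islands that met H3K122ac, BCL2L1 had 5.48 (5.29 to 5.67), CCND2 5.15 (4.47 to 5.96), PIM1 4.63 (4.37 to 4.90), CISH 4.46 (4.25 to 4.68) and SOCS2 4.24 (3.95 to 4.56). By fold, the low place of CCND2 was therefore not seen in the islands that met H3K122ac, where its H3K4me1 interval overlapped that of BCL2L1. These folds depend on the background, and the order of these islands by read density was not compared.

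**Figure D2:**
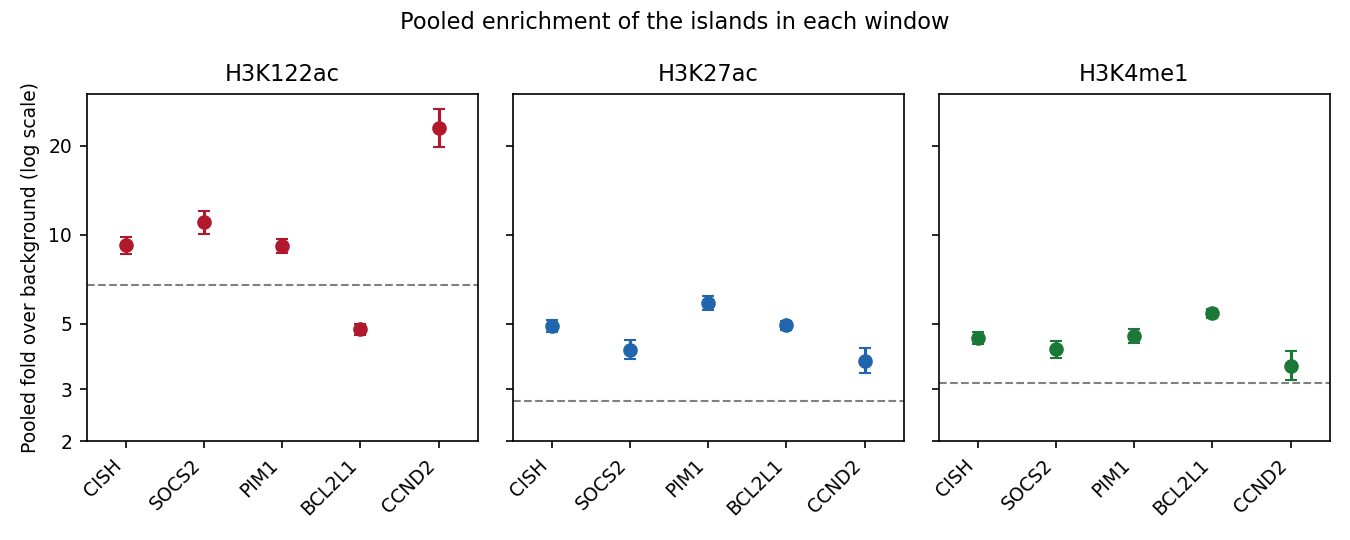
Pooled fold over background of all islands that overlap each window, counted whole (log scale), with exact 95% counting intervals, in 1 panel per mark. The dashed line is the pooled fold of the whole list. CCND2 is highest for H3K122ac at 22.9 and lowest for H3K27ac and H3K4me1, with intervals that overlap those of SOCS2, and BCL2L1 is the only point below its line.

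Background density moved with these folds. In the H3K122ac islands it was 20.8 reads per kb at CCND2, 34.5 at SOCS2, 44.7 at CISH, 51.4 at PIM1 and 62.7 at BCL2L1, so it was higher where the H3K122ac fold was lower. The chromosome medians for H3K122ac islands were 45 on chromosome 12, 50.2 on 3, 65.3 on 6 and 50.7 on 20, so BCL2L1 lay above its chromosome and the other genes below theirs. H3K122ac reads themselves numbered 123.2 per kb at CCND2, 121.6 at PIM1, 106.0 at CISH, 98.0 at SOCS2 and 77.5 at BCL2L1. By H3K122ac read density CCND2 was therefore level with PIM1, while BCL2L1 was still the lowest. For the other marks CCND2 was the lowest by read density over all islands of a window. H3K27ac reads per kb were 80.3 at CCND2, 107.1 at SOCS2, 149.6 at CISH, 198.4 at BCL2L1 and 214.3 at PIM1. H3K4me1 reads per kb were 63.6 at CCND2, 88.5 at SOCS2, 119.7 at CISH, 140.1 at PIM1 and 169.1 at BCL2L1. Background under the CCND2 islands was also the lowest, at 31.2 (H3K27ac) and 30.4 (H3K4me1) reads per kb. The part of background in the order of folds was not tested.

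**Figure D3:**
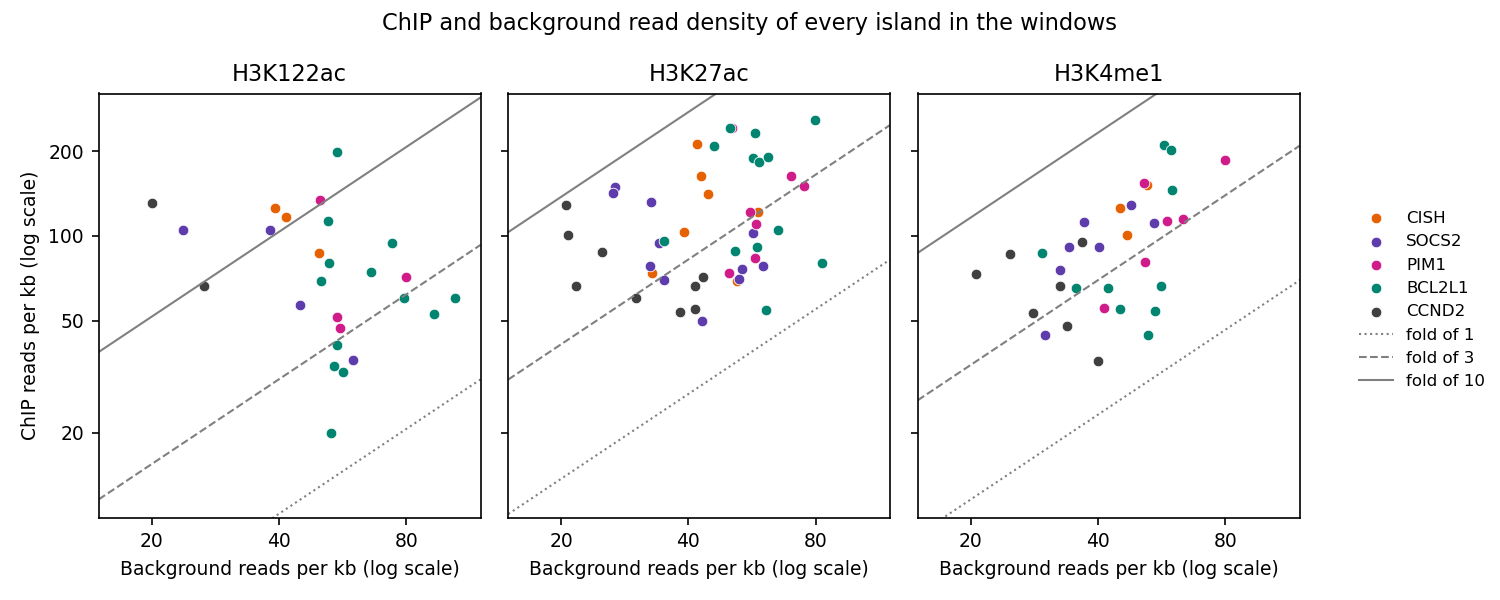
ChIP reads per kb against background reads per kb (both log scales) for each of the 106 islands, in 1 panel per mark, coloured by gene; grey lines mark folds of 1, 3 and 10. The main CCND2 island is the leftmost H3K122ac point, at 20 background and 131 ChIP reads per kb. Of the 13 BCL2L1 H3K122ac islands, 6 lie above the line of fold 3 and the others below it.

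Of the 26 H3K122ac islands at these genes, none met neither other mark (0%, 0 to 13.2%), an interval that includes the 9.97% of the whole list. Of them, 25 met H3K27ac (96.2%, 80.4 to 99.9%), where 78.1% of all H3K122ac islands did so, and 26 met H3K4me1 (100%, 86.8 to 100%), against 85.8% of the list. With a fold of 3 or more required in both lists, 15 of 18 met H3K27ac (83.3%) and 17 of 18 met H3K4me1 (94.4%). The whole list's shares at that fold are not given here. In the other direction 30 of 47 H3K27ac islands met H3K122ac (63.8%, 48.5 to 77.3%; 41.9% of the list) and 43 met H3K4me1 (91.5%, 79.6 to 97.6%; 69.4% of the list). Of 33 H3K4me1 islands, 26 met H3K122ac (78.8%, 61.1 to 91.0%; 54.2% of the list) and 28 met H3K27ac (84.8%, 68.1 to 94.9%; 70% of the list). The 4 H3K27ac islands with neither other mark (8.51%, 2.37 to 20.4%; 28% of the list) were all at CCND2. A fold of 3 or more was reached by 18 of 26 H3K122ac islands (69.2%, near the list's 77.6%), 26 of 47 H3K27ac islands (55.3%; list 27.9%) and 23 of 33 H3K4me1 islands (69.7%; list 42.4%). Neighbouring islands of a gene are not independent, and longer islands meet other islands more readily.

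H3K27ac islands that met H3K122ac had the higher folds at these genes. The 30 that met it had a median fold of 4.57 (range 1.30 to 9.12) with median lengths of 2200 bp, and the 17 that did not had 2.41 (1.40 to 4.48) and 1400 bp. Over the whole list the medians were 2.89 and 2.06. Among H3K4me1 islands the medians were 4.00 with H3K122ac (26 islands) and 2.43 without (7), against 3.23 and 2.24 for the list. The direction was thus that of the whole lists, and the members exceeded their list more among islands with H3K122ac.

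By length, 106.8 kb of the 208.2 kb under any mark carried all 3 (51.3%), against 24.7% over chromosomes 1 to 22 and X. The share was 79.4% at PIM1, 58.1% at BCL2L1, 52.0% at CISH, 34.1% at SOCS2 and 16.5% at CCND2, so CCND2 lay below the genome value. H3K27ac with H3K4me1 but no H3K122ac took 30.6% at SOCS2, 29.7% at CISH, 23.2% at BCL2L1 and 16.5% at CCND2 but 1.88% at PIM1, against 20.4% in the genome. At PIM1 nearly all doubly marked chromatin also carried H3K122ac. CCND2 had 25.2% of its marked length under H3K27ac only, where the other genes had 0 to 4.05% and the genome 16.8%. Joined gaps of up to 600 bp count as marked for H3K122ac and H3K4me1, against 200 bp for H3K27ac.

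**Figure D4:**
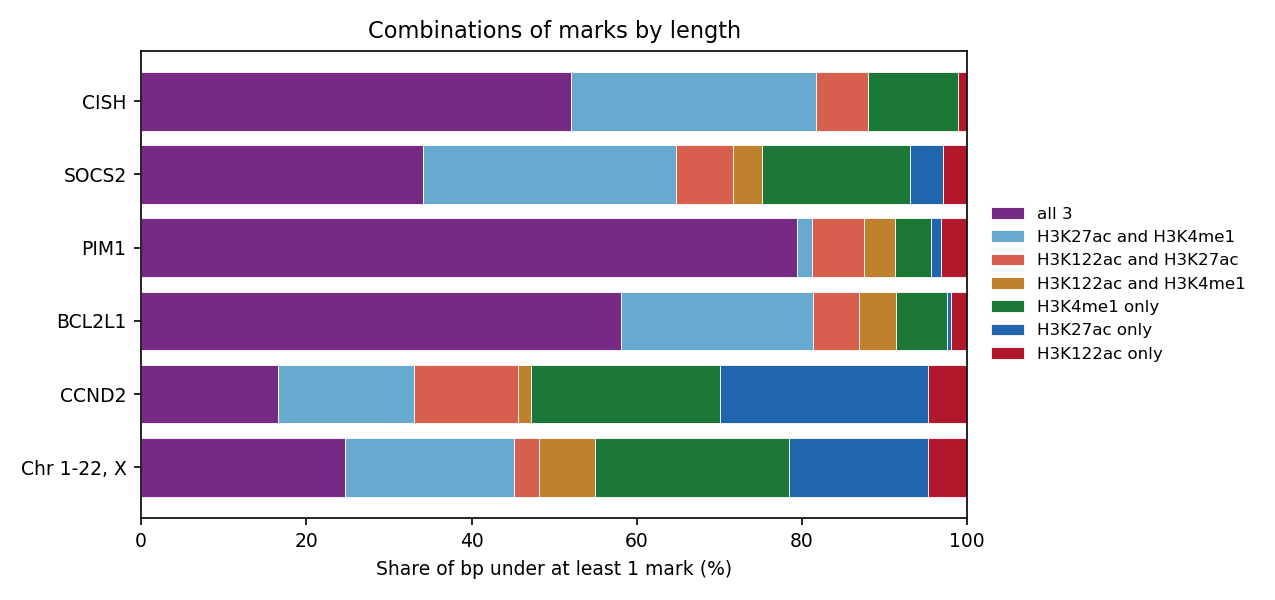
Share of the base pairs under at least 1 mark that carried each combination of marks, for the 5 windows and for chromosomes 1 to 22 and X. All 3 marks together make up 79.4% at PIM1 and 16.5% at CCND2, against 24.7% in the genome.

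In every window an H3K122ac island held an inner gap in H3K4me1. H3K4me1 is usually low at the start of an active gene, but whether these gaps lie at gene starts was not tested. The gap was bounded by H3K4me1 on both sides within the H3K122ac island and was at least 1000 bp long, a limit chosen after the values were seen. It measured 2600 bp at PIM1 (chr6:37137201-37139800), SOCS2 (chr12:93963401-93966000) and CCND2 (chr12:4382601-4385200) and 1800 bp at CISH (chr3:50648401-50650200). The same CCND2 island had a second gap of 1000 bp (chr12:4378201-4379200). The BCL2L1 window had 3 such gaps, of 3000 bp (chr20:30326601-30329600), 1400 bp (chr20:30309601-30311000) and 1000 bp (chr20:30238201-30239200). The longest of them lay in the window's last H3K122ac island, at the end where TPX2 lies. H3K27ac covered 61.5% of the gap at PIM1 and at SOCS2, 77.8% at CISH and all of the longer CCND2 gap and of the longer BCL2L1 pair. It covered 200 bp of the shorter CCND2 gap and none of the shortest at BCL2L1. At PIM1 and SOCS2 the uncovered part was a stretch of 1000 bp with H3K122ac alone, chr6:37137601-37138600 and chr12:93965001-93966000, between H3K27ac islands on both sides. Joined gaps of up to 600 bp count as covered by H3K122ac, so part of such a stretch may not be enriched. In total 7 of the 26 H3K122ac islands had such a gap, against 7.73% of the list. All 7 were among the 12 of at least 4000 bp, a length class in which 25.2% of the list had one. The 4000 bp limit was also not set in advance. The shortest island with a gap spanned 4200 bp and the longest 27600 bp, so the class does not match the members in length. These shares are therefore a description only. Gene starts were not located, because no hg19 annotation was used here, so the gaps were not assigned to any gene.

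Where 2 lists called exactly the same stretch, the counts can be set side by side over the same bases and the same background reads. This was so 3 times at these genes. At CISH chr3:50653601-50655800 (86 background reads) held 277 H3K122ac and 227 H3K27ac reads, a ratio of folds of 3.25 (2.72 to 3.89), above 80.2% of the 5183 such pairs in the lists, whose median was 2.25. At PIM1 chr6:37128601-37129400 (64 background reads) held 57 H3K122ac and 149 H3K4me1 reads, a ratio of 0.86 (0.62 to 1.17), with only 6.01% of 4024 pairs lower and a median of 1.75. At CCND2 chr12:4379201-4381000 (37 background reads) held 232 H3K27ac and 132 H3K4me1 reads, a ratio of 1.48 (1.19 to 1.85), above 96.4% of 6083 pairs with a median of 0.85. Relative to the list medians, the CISH and CCND2 stretches thus leaned to H3K122ac and H3K27ac respectively, and the small PIM1 island to H3K4me1. The PIM1 interval included 1, and each ratio rests on 1 library per mark.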

How the data were processed

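Island lists were analysed for K562 H3K122ac, H3K27ac and H3K4me1, grouped by title. Bowtie 0.12.8, HOMER 4.3, SICER 1.1 and the build hg19 are named, without their roles, in the submitters' processing notes. Per the labels of the lists, windows were 200 bp and the false discovery rate 0.01. The deposited lists give whole-number read counts of the ChIP and of a background library, which is not named in the sources used here. They also give the authors' p-value and q-value. The deposited fold is the authors' ratio of the 2 counts divided by a library ratio of 0.258 (H3K122ac), 0.688 (H3K27ac) or 0.581 (H3K4me1), recomputed and constant within each list. Identical islands had the same background count in every pair of lists.

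Islands were set against the windows with pandas 2.3.3 and scipy 1.17.1. Fold intervals are Clopper-Pearson intervals on the ChIP share of both counts; shares use the same method. PCR duplicates are not independent molecules. Tiles ran from the start of chromosomes 1 to 22 and X to the last island. Named islands are, per window and mark, the one of highest fold, the longest, the one with most reads and all where there were 3 or fewer, and H3K122ac islands without H3K27ac; others named beside them were chosen after their values were seen. The code was tested on simulated islands. The genes, windows and lists were chosen with earlier results of these data known. Other STAT5 pathway genes were not analysed here, since no hg19 annotation was used.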

Additional observations from a re-analysis of the deposited data

How the results depend on the processing

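The 24 results (islands and coverage per mark, highest folds, overlaps, windows with all 3 marks) were each recomputed with other settings, 105 values in all. Of these, 92 stayed within the counting interval of the main value, or within 1.5 times for a count. This number does not measure robustness. Many of the values are highest folds, and the island of highest fold passed the strict q-value in every window and list, so those values could not change. Most coverage values moved. All 5 windows kept all 3 marks in every setting tried. H3K27ac islands numbered 29 in place of 47 when joined across 600 bp and 26 at folds from 3 upward. Coverage of the 5 windows with a fold of 3 or more was 38.5% for H3K122ac (main 45.8%), 48.8% for H3K27ac (60.1%) and 54.1% for H3K4me1 (62.1%). With a q-value of at most 1e-10 it was 56.9% for H3K27ac and 59.0% for H3K4me1, and with H3K27ac joined, 63.0%. Windows widened by 10 kb gave 40.7% for H3K122ac and 55.7% for H3K27ac. Windows narrowed by 5 kb gave 8.39 as the highest BCL2L1 H3K122ac fold (main 14.1) and 100% of H3K122ac islands with H3K27ac (main 96.2%), since the BCL2L1 and CCND2 islands at the window edges are left out. With a fold of 3 or more, 83.3% of H3K122ac islands met H3K27ac, a value inside the wide counting interval of the main value. Ranked by excess reads per kb, the top PIM1 H3K4me1 island had a fold of 4.01 (main 5.17). No paired analysis was possible because each K562 mark has 1 library. The H3K122ac library was the shallowest, with a ratio of 0.258 to background, and the effect of depth on calling was not tested.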

Other observations

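Flanks of the same length on each side of a window show how local the marks were. H3K122ac covered 60.0% of the flank before the CISH window and none of the flank after it, where H3K27ac still covered 44.6% and H3K4me1 50.9%. At BCL2L1, the survival gene, H3K122ac covered 36.4% before, 60.0% within and 8.63% after the window, while H3K27ac covered 50.7%, 74.7% and 49.3%. PIM1 lay in a broadly marked region, with H3K122ac over 49.5% before, 74.0% within and 69.0% after. CCND2 lay in a sparse one, with H3K122ac over 3.14% before, 12.9% within and 8.57% after, and H3K27ac over 2.29%, 25.7% and 6.57%. H3K4me1 was not higher within the window than after it at either gene, with 13.7%, 20.9% and 21.1% at CCND2 and 72.0%, 71.5% and 79.0% at PIM1. At SOCS2 the flank after the window had nearly the H3K122ac coverage of the window itself, 32.4% against 32.8%, and the flank before it 12.4%.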
